A study of Mus musculus with 32 samples.

Results

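Contacts in which an RNA tag and the DNA tag ligated to it lay on the same chromosome more than 10 Mb apart were collected from RADICL-seq of 2 mouse cell types, embryonic stem cells (mESCs) and progenitors of oligodendrocytes (mOPCs). In its standard form RADICL-seq joins chromatin-bound RNA to nearby genomic DNA through an adapter in fixed nuclei and reads a short tag from each side. A contact was kept when both tags carried the same chromosome name and their positions differed by over 10 Mb, and no measured outcome entered this choice. Of 25231081 listed interactions in 15 libraries, 430997 met it, and 2047179 others had tags 1 to 10 Mb apart on 1 chromosome and served as the class nearest in distance. The RNA tags of the 430997 contacts came from 716 transcripts. Malat1 and Fgfr2 are described apart from the rest.

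The mESCs were the line R08, grown without feeder cells in leukemia inhibitory factor, and the mOPCs were Oli-neu, a line made by immortalising oligodendrocyte precursors with the t-neu oncogene. Each cell type was thus a single line. In mESC_1FA and mOPC_1FA (3 libraries each) cells were fixed with 1% formaldehyde, and in mESC_2FA (3 libraries) with 2%. In mESC_ActD4 (2 libraries) the stem cells received actinomycin D, an inhibitor of RNA polymerase II elongation, at 5 µg/ml for 4 h and were then fixed with 1% formaldehyde, and the untreated mESC_1FA libraries were their reference. In mESC_NPM and mOPC_NPM (2 libraries each) the 1% formaldehyde crosslinks were reversed with proteinase K just before RNA ligation, so that contacts held by proteins would be lost (NPM, non-protein-mediated). The RNA and the DNA ligation of these libraries both followed that reversal and were not done in fixed nuclei. The study described replicates as batches of cells of different passage number.

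A line in the deposited tables is not a raw read pair. The authors kept interactions whose pair of a transcript and a 25-kb DNA bin passed a binomial test, so a transcript with no listed contact was not shown to have none. Listed interactions per library ranged from 251802 to 2832717, and these totals are not the sequencing depth. Within each group, 93.8% to 100% of the pairs beyond 10 Mb were listed in every library. Whether the test was run on single libraries or on the libraries of a group together is not stated in the sources used here. Being listed, or at 0, in every library of a group may therefore be a single outcome and is not replication. The spread between libraries below is a spread of counts over nearly the same pairs. Most markers went with the labels: 13 of 14 mESC markers were listed in mESC_1FA and 2 in mOPC_1FA, and 14 of 15 mOPC markers were listed in mOPC_1FA and 9 in mESC_1FA, with summed levels of 19143 and 57.7 contacts per 1000000 listed interactions. Pdgfra (16.8 in mESC_1FA, 2.38 in mOPC_1FA) and Ncan (3.45 and 1.93) went against them, and Nkx2-2 was at 0 in mOPC_1FA. Olig1 and Olig2 were at 0 in every mESC group. In these bulk libraries, fewer cells with a transcript and less of that RNA per cell cannot be told apart.

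A transcript being made is held at its own gene by the polymerase, and most RNA captured on chromatin lies within a short reach of that gene. Introns of long genes stay on chromatin until splicing is done, and chromosomes fold into territories in which remote parts of one chromosome can come near each other. Some noncoding RNAs leave their gene: Malat1 gathers at nuclear speckles, small nuclear RNAs form the spliceosome, and small nucleolar RNAs process or modify ribosomal RNA in the nucleolus, which forms around the ribosomal DNA repeats.

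Sequences are shown for 4 of the small RNAs that carried contacts beyond 10 Mb, because most of their RNA tags fell within 2 bases of one position. They were read from the mouse genome GRCm38 in the direction of the transcript, and the capitals mark the 27 bases centred on the commonest RNA tag position. Whether the deposited positions count from 0 or from 1 is not stated, so the capitals may be off by 1 base. Snord118, chr11:69073427-69073561, is the U8 RNA needed for maturation of the large ribosomal subunit RNA. Gm22973, chr12:59040335-59040525, has the U2 spliceosomal RNA sequence and belongs to a family of many copies, so its genomic origin is uncertain. Rnu3a, chr10:40258467-40258679, is a U3 RNA, which acts in early cuts of the ribosomal precursor. Snora64, chr17:24720772-24720905, is a guide for pseudouridine formation.
Snord118: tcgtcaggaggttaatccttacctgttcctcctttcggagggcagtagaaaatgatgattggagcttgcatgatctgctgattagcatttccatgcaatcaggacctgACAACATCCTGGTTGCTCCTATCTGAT
Gm22973: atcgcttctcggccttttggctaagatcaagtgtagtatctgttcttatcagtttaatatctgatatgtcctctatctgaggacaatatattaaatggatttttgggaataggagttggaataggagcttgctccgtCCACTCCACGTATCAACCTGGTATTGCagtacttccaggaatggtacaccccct
Rnu3a: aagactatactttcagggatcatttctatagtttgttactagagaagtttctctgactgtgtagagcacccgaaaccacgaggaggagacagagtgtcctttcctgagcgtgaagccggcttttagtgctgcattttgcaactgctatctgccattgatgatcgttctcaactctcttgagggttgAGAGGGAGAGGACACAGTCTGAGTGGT
Snora64: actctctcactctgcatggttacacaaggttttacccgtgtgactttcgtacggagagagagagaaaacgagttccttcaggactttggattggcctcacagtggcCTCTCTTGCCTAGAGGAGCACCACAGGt

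Over all libraries, 97.2% of 3704 Snord118 contacts beyond 10 Mb had their RNA tag within 2 bases of the position 13 bases from the annotated 3′ end. The commonest positions of Rnu3a and Snora64 lay 13 and 14 bases from their 3′ ends, with 76.4% of 72 and 73.7% of 350 contacts within 2 bases. A stretch of 27 bases centred there reaches the annotated 3′ end to within a base. For Gm22973, 98.6% of 13143 contacts lay within 2 bases of a position 40 bases from the annotated 3′ end, so its tags lay further inside the annotated transcript.

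**Figure D1:**
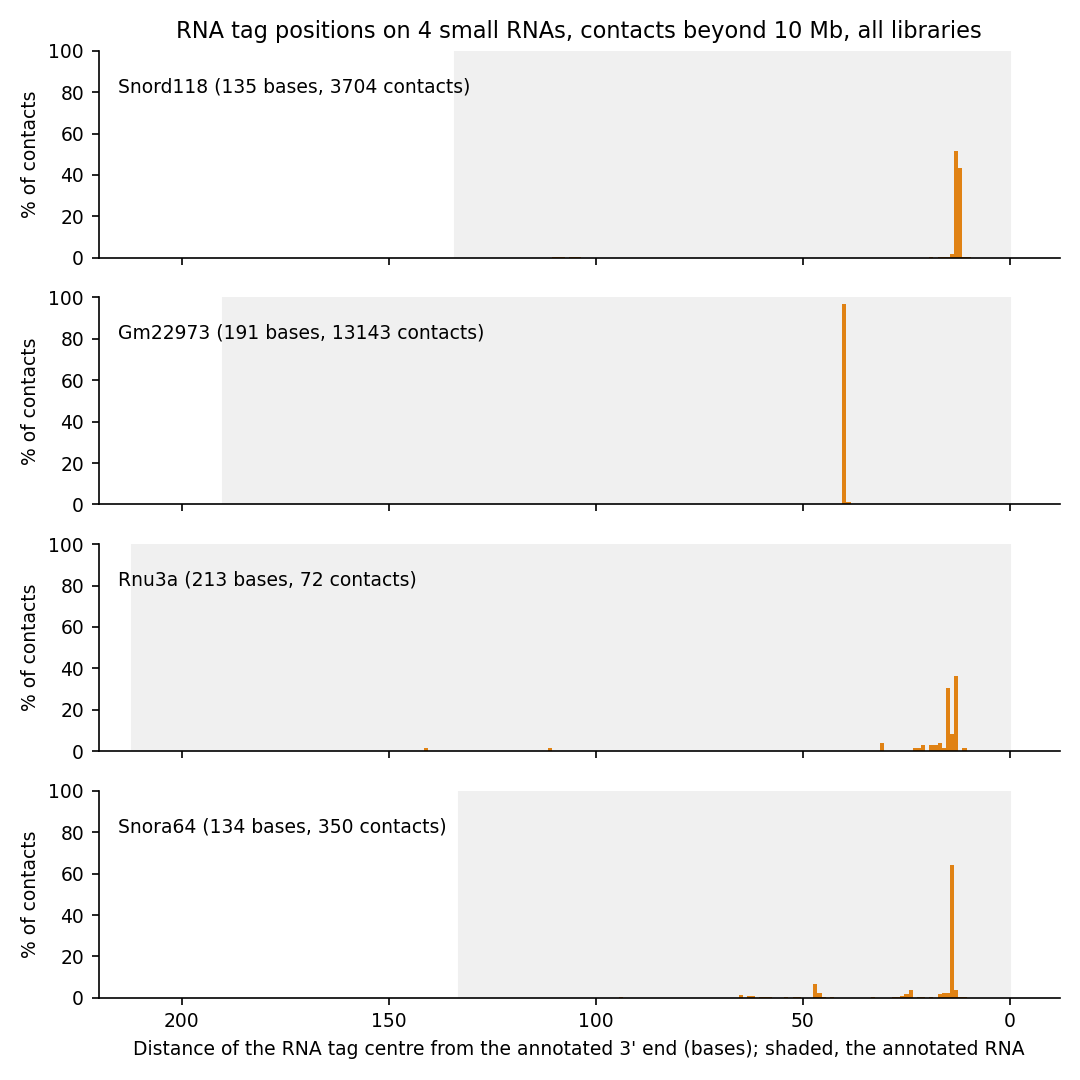
Position of the RNA tag on 4 small RNAs in contacts beyond 10 Mb, pooled over the 15 libraries. The x axis is the distance of the tag centre from the annotated 3′ end in bases, the y axis is the percent of that RNA's contacts, and the shaded span is the annotated RNA; 1 narrow peak per RNA holds most contacts, 13 bases from the end in Snord118 and 40 in Gm22973.

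DNA sequence is shown for the windows of 200 bases with the most contacts in the 2 bins that drew the most different RNAs or the most Snord118 contacts in stem cells. Capitals mark the 27 bases centred on the commonest DNA tag position. The first, chr17:39848057-39848256, lies in the bin chr17:39825001-39850000, where the annotation holds the ribosomal RNA gene CT010467.1 and the long noncoding genes Gm26917, Gm42418 and AY036118. It took 334 of the 2828 contacts in that bin, from 73 different RNAs. The other, chr11:109011816-109012015, lies in the bin chr11:109000001-109025000 with the processed pseudogene Gm11668, and took 502 of 658 contacts from 11 RNAs.
chr17 window: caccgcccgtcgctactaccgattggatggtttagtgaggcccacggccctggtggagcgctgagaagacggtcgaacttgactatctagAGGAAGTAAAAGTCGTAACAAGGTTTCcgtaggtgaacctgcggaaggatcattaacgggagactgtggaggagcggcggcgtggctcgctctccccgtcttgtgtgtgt
chr11 window: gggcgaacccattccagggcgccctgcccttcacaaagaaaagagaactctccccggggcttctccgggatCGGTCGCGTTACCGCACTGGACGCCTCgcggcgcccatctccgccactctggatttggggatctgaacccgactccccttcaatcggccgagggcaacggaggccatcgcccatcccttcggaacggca

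Of the 24981 stretches of 20 bases in the chromosome 11 bin, 569 (2.28%) also occurred in the chromosome 17 bin, but none of the 181 in the chromosome 11 window did. Only that bin of chromosome 17 was searched. The comparison therefore cannot show whether the chromosome 11 window is a copy of ribosomal DNA. Reads of near-identical copies cannot always be told apart, so the origin of tags in ribosomal DNA and its copies is uncertain.

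Contacts beyond 10 Mb made up about 1.8% to 3% of listed interactions in the 1FA libraries and about 0.1% in both NPM groups. The share of listed interactions was 1.92%, 1.84% and 1.83% in the 3 mESC_1FA libraries and 2.67%, 2.94% and 2.98% in the 3 mOPC_1FA libraries. It was 1.30%, 1.47% and 1.39% in mESC_2FA. It was 0.458% and 0.511% in mESC_ActD4, 0.0930% and 0.150% in mESC_NPM, and 0.127% and 0.145% in mOPC_NPM. In each pair of groups compared below, the libraries of one group all lay above those of the other. The mOPC share exceeded that of mESCs under 1FA by 1.00 percentage points (2.87% ± 0.168 against 1.87% ± 0.0459, SD, n = 3 each; exact permutation p = 0.1, adjusted over 6 comparisons 0.2). The 2FA share differed from 1FA by -0.477 points (1.39% ± 0.0848, n = 3; exact permutation p = 0.1, adjusted 0.2). With 3 libraries against 3 the smallest two-sided p is 0.1, and with 3 against 2 it is 0.2, so no comparison of 2 groups could pass 0.05.

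The share was lower after actinomycin D and in both NPM groups, but no p-value passed the threshold after adjustment. The difference was -1.38 points in mESC_ActD4 (0.484% ± 0.0371, n = 2), -1.74 in mESC_NPM (0.121% ± 0.0400, n = 2) and -2.73 in mOPC_NPM (0.136% ± 0.0131, n = 2), each with an exact permutation p of 0.2, adjusted 0.2. Over both cell types together, with libraries exchanged within a cell type, the difference of NPM from 1FA was -2.24 points (exact permutation p = 0.02, the smallest this design allows, adjusted 0.12). The difference between cell types in the NPM effect was -0.987 points (exact permutation p = 0.0667 over 120 regroupings). Groups listed different numbers of interactions, from 670583 in mESC_ActD4 to 7942307 in mESC_1FA. Thinning all groups to 670583 at random gave differences of -1.37, -1.74 and -2.73. A random subset keeps the expected share, so this thinning could not show whether the number of listed interactions mattered. When each pair was also required to hold 5 or more of the thinned interactions, every far contact of mESC_ActD4 was kept, since its pairs already held 6 or more, against 4.79% of those of mESC_1FA and 6.33% of mESC_2FA. The mESC_ActD4 share then stood 0.308 points above mESC_1FA (0.484% against 0.176%), and the differences of mESC_2FA, mESC_NPM and mOPC_NPM were -0.0199, -0.0676 and -0.855, with mOPC_1FA 0.757 above mESC_1FA. That setting compares groups of which the minimum removed very unequal parts. With a minimum of 20 after thinning, which acted on every group, no far contact of mESC_1FA or mOPC_NPM was left and mESC_ActD4 kept 20.6% of its own. Without interactions that touch chromosome 5, mOPC_1FA exceeded mESC_1FA by 0.203 points in place of 1.00, and the libraries overlapped (1.99%, 2.21% and 2.30% against 2.02%, 1.94% and 1.93%).

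**Figure D2:**
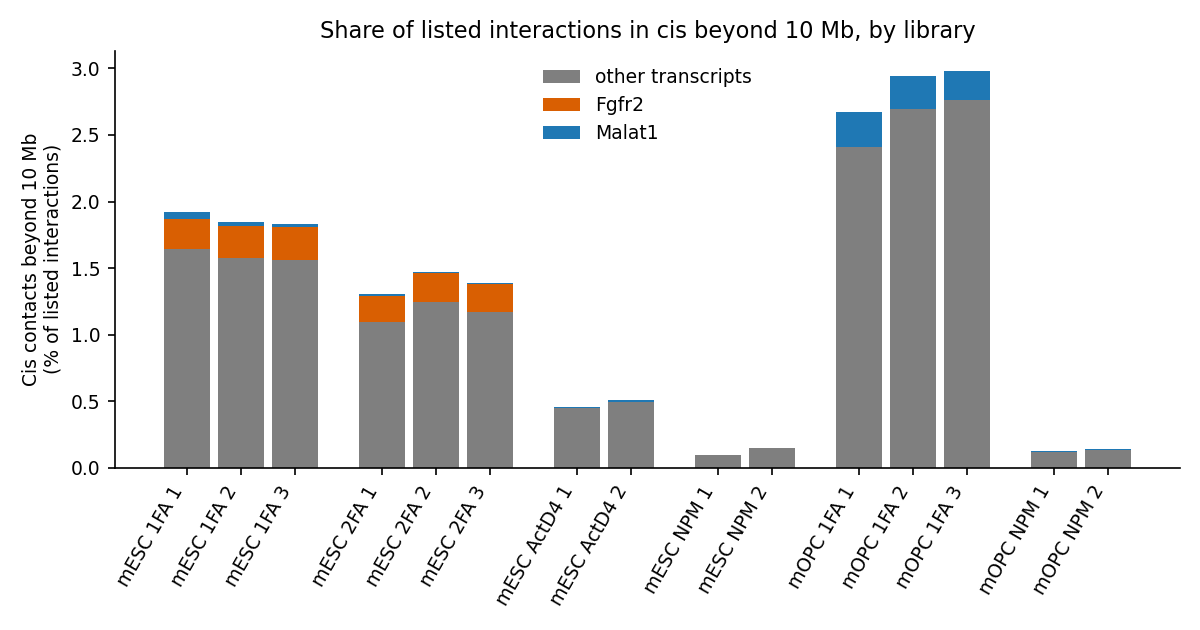
Percent of all listed interactions that lay in cis beyond 10 Mb, 1 bar per library, split into Malat1, Fgfr2 and all other transcripts. The 3 mOPC_1FA bars reach 2.67% to 2.98%, the mESC_1FA bars 1.83% to 1.92% and the NPM bars at most 0.150%; Fgfr2 is visible in the mESC_1FA and mESC_2FA bars and Malat1 mainly in mOPC_1FA.

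Few of the listed transcripts carried the far contacts. In mESC_1FA 333 of 14248 listed transcripts (2.34%) had any, in mOPC_1FA 376 of 11681 (3.22%), in mESC_2FA 202, in mESC_NPM 90, in mOPC_NPM 55 and in mESC_ActD4 18. Of the 716 transcripts, 469 (65.5%) had them in 1 group only and 2 had them in all 6, namely Msi2, a Musashi RNA-binding protein, and Srrm2, a spliceosomal scaffold of nuclear speckles. The carriers came from long genes: their median gene length was 145.7 kb in mESC_1FA and 215.1 kb in mOPC_1FA, against 27.6 kb and 28.7 kb over all listed transcripts. In mESC_ActD4 the median was 0.242 kb, because most carriers there were small RNAs. Carriers were also well captured, with a median of 4819 listed contacts of any distance in mESC_1FA against 89 over all transcripts. How far capture and length account for which transcripts were listed beyond 10 Mb was not tested.

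The load was concentrated. In mESC_1FA 9 transcripts held the first 50% of contacts and in mOPC_1FA 13, while in mESC_ActD4 1 transcript did and in mOPC_NPM 2. The 10 leading transcripts held 56.5% of the contacts in mESC_1FA, 65.4% in mESC_2FA, 44.3% in mOPC_1FA, 84.4% in mOPC_NPM and 97.1% in mESC_ActD4. In mESC_NPM they held only 29.0%.

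Fgfr2, a fibroblast growth factor receptor, led in mESC_1FA and mESC_2FA. It had 6011, 5814 and 6940 contacts beyond 10 Mb in mESC_1FA, 12.7% of the group's, and 4295, 4414 and 5210 in mESC_2FA, 14.8% of the group's. In mOPC_1FA it had 5, 4 and 3, in mESC_ActD4 2 and 1, and in both NPM groups it was listed at 0. All 6 libraries of mESC_1FA and mESC_2FA thus lay far above every other library. The gene model of Fgfr2 in the annotation used here runs over chr7:130162451-133123350 on the minus strand and overlaps Ctbp2, a transcriptional corepressor gene at chr7:132987563-133124354 on the same strand. Of the 18765 Fgfr2 contacts in mESC_1FA, 16286 (86.8%) had their RNA tag inside Ctbp2, and of 13919 in mESC_2FA 87.3% did, so most of the RNA named Fgfr2 here cannot be told apart from Ctbp2, and the rest lay outside Ctbp2. These contacts reached 1173 of the 5018 bins of chromosome 7 that lie beyond 10 Mb (23.4%), with a median distance of 21.7 Mb and a greatest distance of 86.4 Mb in mESC_1FA. Of all listed Fgfr2 contacts in mESC_1FA, 26.9% ± 0.559 (n = 3) lay beyond 10 Mb.

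Malat1, a long noncoding RNA of nuclear speckles, led mOPC_1FA by its mean, though in replicate 3 Anks1b stood higher (5320 against 4364). In mOPC_NPM Malat1 ranked 3. Its contacts beyond 10 Mb numbered 5867, 5209 and 4364 in mOPC_1FA (8.54% of the group's) and 1238, 733 and 750 in mESC_1FA (1.84%). They numbered 359, 262 and 294 in mESC_2FA, 50 and 43 in mESC_ActD4 and 138 and 162 in mOPC_NPM, and Malat1 was listed at 0 in mESC_NPM. Per 1000000 listed interactions it stood at 2436 ± 237 in mOPC_1FA, 343 ± 106 in mESC_1FA, 145 ± 36.3 in mESC_ActD4, 135 ± 22.3 in mESC_2FA and 122 ± 19.6 in mOPC_NPM, the last 3 of which overlap. Unlike Fgfr2, only a small part of its own contacts were of this kind: 2.01% ± 0.00624 in mOPC_1FA and 1.88% ± 0.0751 in mESC_1FA. Malat1 contacts of any distance were also more numerous in mOPCs, at 120956 per 1000000 listed in mOPC_1FA against 18357 in mESC_1FA. The gene, chr19:5795690-5802672, is near the start of its chromosome, so every one of its far contacts lay on the side of the chromosome end, at a median of 41.1 Mb in mOPC_1FA and 38.6 Mb in mESC_1FA. They covered 306 of 1826 possible bins in mOPC_1FA, 115 in mESC_1FA and 9 in mOPC_NPM.

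In mESC_1FA the leaders after Fgfr2 were long protein-coding genes with 1 small RNA and 1 long noncoding RNA among them. Wwox, an oxidoreductase gene across a fragile site, had 5932, 4419 and 5245 contacts, and 29.6% ± 0.897 of all its listed contacts lay beyond 10 Mb. Msi2 had 3030, 2398 and 2752, and Smyd3, a lysine methyltransferase gene, had 2819, 1736 and 2149. Gm22973 had 1503, 2454 and 2383. Pvt1, a long noncoding RNA gene beside Myc, had 1630, 2095 and 2496. Jarid2, a partner of Polycomb repressive complex PRC2, had 1769, 1870 and 2164, and Exoc4, an exocyst subunit, had 1606, 1799 and 2112. The leaders differed in how much of their own contact list lay so far away: 20.1% for Msi2, 23.5% for Smyd3, 18.8% for Pvt1, 15.7% for Exoc4 and 13.3% for Jarid2, but 2.12% for Gm22973. The RNA tags of the protein-coding leaders were intronic in 94.6% to 99.5% of contacts. Wwox reached 881 of 4377 possible bins (20.1%), and Gm22973 219 of 4006 (5.47%). The same 8 transcripts led mESC_2FA, with Gm22973 in the third place.

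In mOPC_1FA a different set led after Malat1. Anks1b, a scaffold protein gene with ankyrin repeats, had 4566, 4894 and 5320 contacts, and Lhfpl3, a membrane protein gene used as an OPC marker, had 3336, 3775 and 3855. Of their own contacts 29.4% and 28.1% lay beyond 10 Mb. Sox6, a transcription factor of oligodendrocyte progenitors, had 2695, 2977 and 2810. Xylt1, which starts glycosaminoglycan chains on proteoglycans, had 1257, 1463 and 1511. These 4 genes had no listed contact beyond 10 Mb in mESC_1FA, and Lhfpl3 had none of any distance there. Sox6 was little captured there at any distance, as given below. Pvt1 was among the 8 leaders of both mESC_1FA and mOPC_1FA, with 2590, 3136 and 2862 contacts in mOPC_1FA. The long noncoding 5031425E22Rik had 1666, 1821 and 2021 and 2610035D17Rik had 1277, 1562 and 1291. Lhfpl3 and 5031425E22Rik are both on chromosome 5 at chr5:22746059-23275597 and chr5:23382308-23434269.

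In mOPC_NPM the leaders were Lhfpl3 with 751 and 795 contacts (46.2% of the group's), Auts2, a neurodevelopment gene, with 254 and 238, Malat1, and 5031425E22Rik with 108 and 94. 2610035D17Rik had 39 and 69, Adgrl3, an adhesion receptor gene, had 42 and 26, Babam2 had 12 and 16, and Srpk2, a kinase of splicing factors, had 15 and 13. Of these 8, 6 are genes of chromosome 5. Auts2, at chr5:131437333-132543344, had a median distance of 100 Mb, the greatest median of any leader on that chromosome.

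In mESC_ActD4 small RNAs led. Snord118 had 1216 and 835 contacts, 64.0% of the group's, and 14.1% ± 0.206 of its own contacts lay beyond 10 Mb. Gm22973 had 316 and 186, Snord13 136 and 83, Rnu3a 47 and 25, and Rmrp, the RNA of ribonuclease MRP, 29 and 19. Malat1 and Msi2 (26 and 16) were the only leaders there that are not small RNAs. Snora64 had 18 and 14, all of its listed contacts and all in the chromosome 17 bin. In mESC_NPM counts were small and uneven between libraries. Snord118 had 53 and 9, Lama1, a laminin chain gene, 15 and 46, Srrm2 9 and 42, Msi2 8 and 32, Birc6, an inhibitor of apoptosis, 10 and 23, the RNA-binding gene Qk 8 and 23, Fbxl17 9 and 20, and Afdn 6 and 20. For each of these except Snord118, the library of replicate 2 was the higher one. Lama1, Srrm2, Birc6, Qk, Fbxl17 and Afdn are on chromosome 17, and every far contact of theirs in mESC_NPM lay in the single bin chr17:39825001-39850000.

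**Figure D3:**
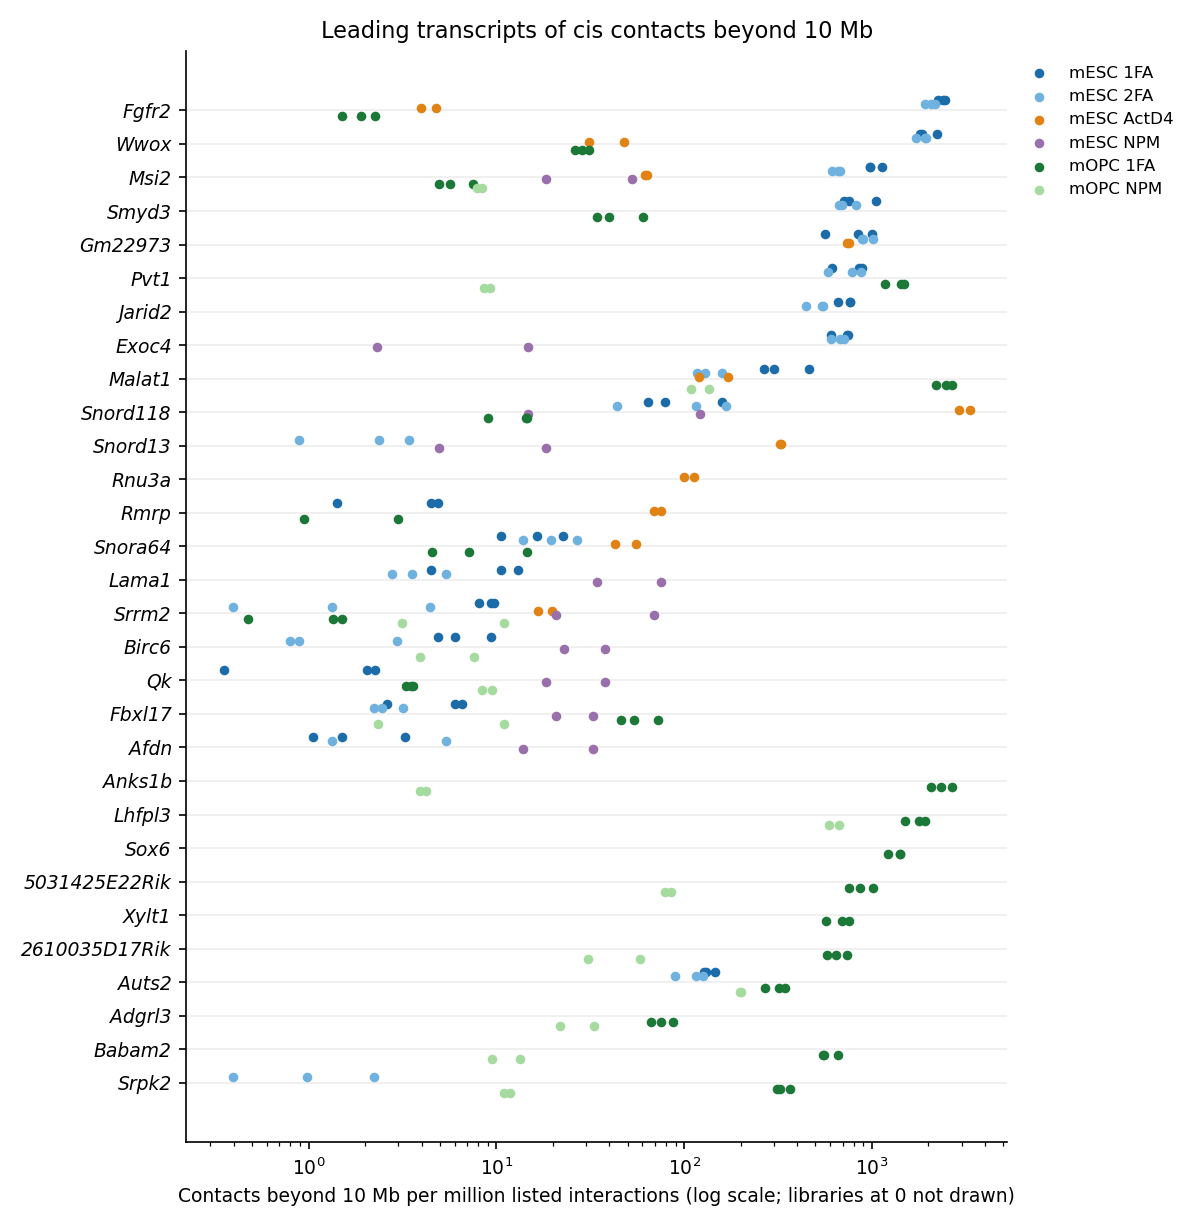
Contacts beyond 10 Mb per 1000000 listed interactions, on a log axis, for the leading transcripts of each group and for Fgfr2 and Malat1. Each point is 1 library and libraries at 0 are not drawn; Fgfr2 stands at 2253 to 2450 in mESC_1FA and at most 2.26 in mOPC_1FA, Malat1 at 2183 to 2654 in mOPC_1FA, and Snord118 at 2904 and 3316 in mESC_ActD4.

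Per-transcript rates were compared between groups with limma on log2 contacts per 1000000 listed interactions. A fold here is the ratio of the groups' mean rates, and a log2 difference is the fitted difference of mean log2 rates with a prior count of 0.5, so the log2 value is not the logarithm of the fold and departs from it where libraries of a group differ or counts are low. The comparisons of mESC_2FA, mESC_ActD4 and mESC_NPM share the mESC_1FA libraries as reference. Between mOPC_1FA and mESC_1FA, 286 of 293 transcripts tested differed (97.6% called), 178 higher (60.8%) and 108 lower (36.9%) in mOPCs, and the libraries of 287 were not overlapping (98%). Of the 716 transcripts, 293 passed the filter of at least 10 contacts in as many libraries as the smaller group has. A transcript that passed through one group alone had to differ, so with such a share called, being called sets no transcript apart. Of the 286, 236 were listed at 0 in all libraries of one cell type, and no fold is given for those. Of the 57 tested transcripts measured in both, 20 were higher and 30 lower in mOPC_1FA and 7 did not pass. Measured here means at least 1 contact in a group, and 18 transcripts had at least 10 in every library of both. The others may have passed the filter through a single group, so being called says little of them. Malat1 was 7.10-fold higher (log2 2.87 ± 0.23, SE; limma adjusted p = 4.74e-06). Zbtb20, a zinc-finger repressor gene, had a mean of 890.3 contacts in mOPC_1FA against 9.33 (log2 6.85), and Tcf4, a basic helix-loop-helix factor, 170 against 3 (log2 6.20). With mESC_1FA means below 10, neither could pass the filter through mESC_1FA, so their differences are given as values. Kcnq1ot1, the imprinted antisense RNA of the Kcnq1 locus, had 285 against 92 (log2 1.97), Auts2 650.7 against 355 (log2 1.20) and Pvt1 log2 0.81 (limma adjusted p = 0.00404). Lower in mOPCs were Msi2 (log2 -7.37), Wwox (log2 -6.09) and Smyd3 (log2 -4.25). Fgfr2 (log2 -10.13 ± 0.16), with 5, 4 and 3 contacts in mOPC_1FA, passed the filter through mESC_1FA alone, so its difference is given as a value. At 0 in every mESC_1FA library were Anks1b, Lhfpl3, Sox6, 5031425E22Rik and Xylt1, and at 0 in every mOPC_1FA library were Gm22973, Jarid2, Exoc4, Arl15 (means of 1804 in mESC_1FA) and Ntn1, the axon guidance factor netrin-1 (mean 1699). Lhfpl3 in mESC_1FA and Gm22973 in mOPC_1FA had no listed contact of any distance, so these 2 values are not a change in distance. Sox6 was little captured in mESC_1FA as well. All 15 mOPC markers, Sox6 among them, together stood there at 57.7 contacts of any distance per 1000000 listed. Sox6 alone had 12554, 12797 and 12155 listed contacts in mOPC_1FA. Jarid2 and Exoc4 were listed at shorter distances in mOPC_1FA, Exoc4 at 846 contacts of any distance per 1000000 listed against 4448 in mESC_1FA. How far capture at any distance accounts for the values at 0 was not tested. Zbtb20, Tcf4, Kcnq1ot1 and Auts2 were named after their values were seen or for their place in a list below.

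With 2% formaldehyde 88 of 124 transcripts differed from 1FA (71% called), 87 lower (70.2%) and 1 higher (0.806%). The 1 higher was Zfp710, a zinc-finger gene, with means of 40 against 28 contacts (log2 0.81, limma adjusted p = 0.0480), named here because it stood alone, and its libraries overlapped between the groups. Over the 114 measured in both groups the median log2 difference was -0.88. Robo1, a receptor for Slit guidance proteins, had 31, 32 and 30 contacts in mESC_1FA, and Faf1 23, 19 and 27 and Ppp1r9a 19, 21 and 22, and all 3 were at 0 in every mESC_2FA library. Cnot1, the scaffold of the CCR4-NOT deadenylase, went from 71, 64 and 72 to 3, 10 and 3 (0.0951-fold). Aff1, a subunit of the super elongation complex, went from 37, 23 and 29 to 0, 2 and 7 (0.112-fold). Neither Cnot1 nor Aff1 held 10 contacts in every mESC_2FA library. Both passed the filter through mESC_1FA, so their differences are given as values. The Aff1 log2 difference of -3.58 was -2.55 without mESC_2FA replicate 1 and -4.42 without replicate 3, and that of Cnot1, -3.55, was -4.16 without replicate 2. The transcripts with the highest counts moved less. Fgfr2 was at 0.869-fold (log2 -0.20 ± 0.12), which did not pass (limma adjusted p = 0.150, and 0.0916 with the replicate block), although it was lower in each same-numbered pair; it turned to log2 0.22 when scaled to contacts beyond 10 Mb in place of all listed interactions. Malat1 was at 0.394-fold (log2 -1.31 ± 0.20, limma adjusted p = 1.50e-04), and its 3 libraries in each group did not overlap. Much of this was a fall at any distance: in the rate unit used above, Malat1 stood at 7555 against 18357 in mESC_1FA. Of its own contacts, 1.72% to 1.83% lay beyond 10 Mb in mESC_2FA against 1.84% to 1.97% in mESC_1FA.

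After actinomycin D 137 of 140 transcripts differed from mESC_1FA (97.9% called), 10 higher (7.14%) and the others lower (90.7%). Of the 137, 122 were at 0 in one group. The higher 10 were 8 small nucleolar RNAs, Rmrp and Srrm2. Snord118 was 31.0-fold higher per 1000000 listed interactions (log2 5.06 ± 0.25, limma adjusted p = 4.49e-62; 171, 387 and 223 contacts in mESC_1FA) and Rmrp, with 12, 12 and 4 there, was 20.1-fold higher (log2 4.46 ± 0.38). Much of this was a rise at any distance: per 1000000 listed, Snord118 stood at 22121 against 1487 in mESC_1FA and Rmrp at 1825 against 327. Of their own contacts, 13.9% and 14.2% lay beyond 10 Mb against 6.51% to 6.99% for Snord118, and 3.82% and 4.11% against 0.546% to 1.55% for Rmrp. Snora78, with 10 and 11 contacts against 33, 22 and 20, was 3.56-fold higher per 1000000 listed, since the mESC_ActD4 libraries list fewer interactions. Snord13 and Rnu3a were listed at 0 in every mESC_1FA library. The lower transcripts included Fgfr2 (0.00185-fold, log2 -8.63 ± 0.28), and Smyd3, Pvt1, Jarid2, Exoc4 and Arl15, which were at 0 in both mESC_ActD4 libraries. Fgfr2, with 2 and 1 contacts in mESC_ActD4, passed the filter through mESC_1FA alone, so its difference is given as a value. Malat1 was at 0.423-fold (log2 -1.21 ± 0.28, limma adjusted p = 1.86e-05), but at log2 0.74 when scaled to contacts beyond 10 Mb. The fit put all transcripts of this comparison, and of mESC_NPM against mESC_1FA, on a common spread, which makes their p-values very small, and with a prior count of 2 in place of 0.5 the count called after actinomycin D was 89.

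In NPM few transcripts kept listed contacts beyond 10 Mb. In mESCs 137 of 139 transcripts differed (98.6% called), 130 lower (93.5%) and 7 higher (5.04%), with 136 not overlapping between groups (97.8%), and 120 of the 137 were at 0 in one group. Scaled to contacts beyond 10 Mb, 84 were called, 36 of them higher. Lama1 had 15 and 46 contacts against 12, 26 and 37 in mESC_1FA (5.85-fold per 1000000 listed, log2 2.57 ± 0.31), and Srrm2 9 and 42 against 26, 23 and 23 (4.93-fold, log2 2.08 ± 0.30). The Lama1 log2 difference ran from 2.02 to 3.12 when 1 library was left out. The Srrm2 value differed between the mESC_NPM libraries, with log2 1.24 without replicate 2 and 2.91 without replicate 1. Each of these fits leaves 1 mESC_NPM library, so only the size of the difference is given. Snora78 was 2.57-fold and Mtcl1, a microtubule crosslinker gene, 2.00-fold higher, the latter with log2 0.33 and a limma adjusted p of 0.190 under another scaling (TMM). Fgfr2, Wwox, Smyd3, Gm22973, Pvt1 and Malat1 were at 0 in both mESC_NPM libraries. In mOPCs 209 of 213 differed (98.1% called), 206 lower (96.7%) and 3 higher (1.41%), with 183 of the 209 at 0 in mOPC_NPM. The 3 higher were Qk, Sdk1 and Msi2, with log2 differences of 1.32, 0.79 and 0.46, named for being so few. Qk, with 8, 7 and 7 contacts in mOPC_1FA, passed the filter through mOPC_NPM alone. At 0 in mOPC_NPM were Sox6, Xylt1, Nav3, Rab28 and Wdr1, whose mOPC_1FA means were 2827, 1410, 1366, 1264 and 1305 contacts. Malat1 was at 0.0502-fold (log2 -4.32 ± 0.19, limma adjusted p = 1.68e-08). Scaled to contacts beyond 10 Mb it was at log2 0.08, which did not pass (limma adjusted p = 0.642).

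By RNA class, protein-coding transcripts carried most far contacts except after actinomycin D. Their share was 90.5%, 86.8% and 88.3% in mESC_1FA and 78.1%, 78.4% and 79.6% in mOPC_1FA. It was 4.01% and 4.04% in mESC_ActD4, where the class ncRNA, which holds the small RNAs, had 93.4% and 92.6%. In mESC_NPM the 2 libraries differed widely, with 69.3% and 94.7% protein-coding and 28.2% and 3.51% ncRNA. Small nucleolar RNAs made up 76.0% ± 0.897 of mESC_ActD4 far contacts against 0.835% ± 0.327 in mESC_1FA and 0.160% ± 0.0131 in mOPC_1FA.

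Long noncoding RNA took 5.87%, 6.50% and 6.44% of far contacts in mESC_1FA and 21.7%, 21.4% and 20.2% in mOPC_1FA, and the cell types did not overlap. The difference was 14.8 percentage points (21.1% ± 0.819 against 6.27% ± 0.349, n = 3 each; exact permutation p = 0.1, the smallest possible, adjusted 0.24), and 9.22 points without Malat1 (13.7% against 4.52%). The share in mESC_2FA, 5.96%, 7.02% and 6.71%, overlapped that of mESC_1FA but was the higher one in each of the 3 same-numbered pairs (difference 0.295 points, exact permutation p = 0.4, and 0.25 with the replicate block, the smallest that 3 pairs allow). It was 2.61% and 3.34% in mESC_ActD4 and 0.248% and 0.878% in mESC_NPM, both below every mESC_1FA library (differences -3.29 and -5.71, exact permutation p = 0.2 each, the smallest possible). In mOPC_NPM it was 18.6% and 19.7%, a difference of -1.96 points from mOPC_1FA (exact permutation p = 0.2). That direction turned to 2.08 points above with a limit of 20 Mb, and to 1.00 with each pair of transcript and bin counted once.

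**Figure D4:**
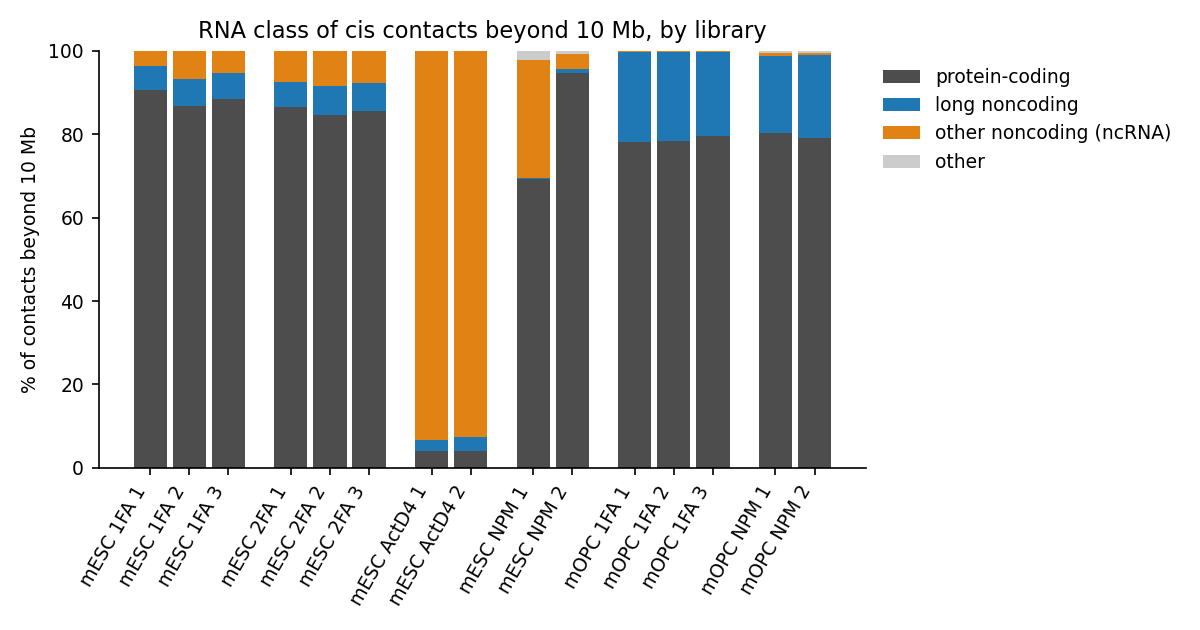
RNA class of the contacts beyond 10 Mb, as stacked percent per library. Protein-coding RNA fills most of each bar except the 2 mESC_ActD4 bars, in which other noncoding RNA reaches 93.4% and 92.6%; long noncoding RNA takes about 20% in mOPCs and about 6% in mESC_1FA.

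Against contacts of 1 to 10 Mb in the same library, far contacts held a lower share of protein-coding and of intronic RNA in every group by its mean. Sign flips over the 15 libraries take them as independent, although libraries of a group list nearly the same pairs and those of mESC_1FA and mESC_2FA are paired. With the 6 groups as units the exact sign-flip permutation p was 0.0312 for both, the smallest possible, and the adjusted p of 0.0625 did not pass. The protein-coding share was lower beyond 10 Mb in 15 of 15 libraries, with a mean difference of -20.9 percentage points (72.7% against 93.5%; exact sign-flip permutation p = 6.10e-05, the smallest possible, adjusted 2.44e-04). The mean difference was -88.0 points in mESC_ActD4, -15.0 in mESC_NPM, -12.7 in mOPC_1FA, -11.0 in mESC_2FA, -8.16 in mESC_1FA and -5.83 in mOPC_NPM. Intronic RNA tags were fewer in 14 of 15 libraries (difference -16.4 points, exact sign-flip permutation adjusted p = 0.00256). The mean was carried by mESC_ActD4 (-86.3 points), and the other groups had -10.1 in mOPC_NPM, -8.08 in mOPC_1FA, -5.97 in mESC_2FA, -3.42 in mESC_1FA and -0.571 ± 14.8 (SD) in mESC_NPM. They still made up 89.2% ± 0.783 of far contacts in mESC_1FA and 85.2% ± 1.67 in mOPC_1FA, but 3.57% ± 0.116 in mESC_ActD4.

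Long noncoding RNA was more frequent beyond 10 Mb than at 1 to 10 Mb in 11 of 15 libraries and 4 of 6 groups, by 12.5 points in mOPC_1FA, 4.69 in mOPC_NPM, 3.31 in mESC_2FA and 3.09 in mESC_1FA, and less frequent in mESC_ActD4 and mESC_NPM (-3.23 and -2.43). The mean difference of 3.65 points had an adjusted p of 0.0252 by exact sign-flip permutation over libraries, and with groups as units it did not pass (2.99 points, exact sign-flip permutation p = 0.25, adjusted 0.333). Without Malat1 and Fgfr2 the difference was 0.884 points and did not pass (adjusted p = 0.411 by exact sign-flip permutation), and without any single mOPC_1FA library the adjusted p was 0.0503. The DNA tag lay in an annotated gene in 70.9% of far contacts against 67.9% at 1 to 10 Mb, higher in 13 of 15 libraries and 5 of 6 groups (difference 2.98 points, exact sign-flip permutation p = 0.0527 over libraries and 0.406 over groups). Both exceptions were the mESC_NPM libraries (mean difference -9.63 points), and without replicate 1 or 2 of that group the adjusted p was 0.00358 and 0.0140.

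Most far contacts of the formaldehyde groups spanned 10 to 50 Mb. In mESC_1FA 47.0% lay at 10 to 20 Mb, 45.2% at 20 to 50 Mb, 7.75% at 50 to 100 Mb and 0.0203% beyond 100 Mb, with a median of 20.8 Mb. In mOPC_1FA the values were 43.9%, 46.1%, 9.25% and 0.770%, with a median of 22.4 Mb. In mESC_ActD4 the median was 49.4 Mb, and 40.2% ± 0.993 lay at 50 to 100 Mb. In mOPC_NPM 14.4% ± 0.220 lay beyond 100 Mb, which is where most Auts2 contacts fell, and 56.9% ± 1.13 at 10 to 20 Mb. The position of a gene on its chromosome limits these distances.

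Most DNA bins were reached by 1 RNA. Far contacts filled 9635 bins in mESC_1FA, 6576 in mESC_2FA, 7651 in mOPC_1FA, 222 in mESC_ActD4, 170 in mOPC_NPM and 13 in mESC_NPM. In mESC_1FA 84.5% of bins and in mOPC_1FA 70.8% had a single RNA transcript, and the median number of contacts per bin was 12 in both. In mESC_1FA and mESC_2FA 1 bin was reached by 10 or more RNAs, the chromosome 17 bin with 39 and 22 RNAs. In mOPC_1FA 87 bins were, and 82 of them lie on chromosome 5.

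The bin chr17:39825001-39850000 ranked first in 5 of the 6 groups and came to dominate mESC_NPM. It took 249, 298 and 185 contacts in mESC_1FA (0.494% of the group's), 119, 217 and 156 in mESC_2FA, 55 and 48 in mESC_ActD4, 77 and 143 in mOPC_NPM and 65, 95 and 96 in mOPC_1FA, where it ranked 56. In mESC_NPM it took 263 and 762, which is 77.9% of the group's contacts, from 70 of its 90 transcripts. Snora64 led that bin in mESC_1FA, mESC_2FA, mESC_ActD4 and mOPC_1FA, and Lama1 in mESC_NPM. In mESC_NPM 74.4% ± 13.1 of the RNA tags came from chromosome 17.

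Bins of chromosome 11 followed in the mESC groups. The bin chr11:109000001-109025000 took 64, 99 and 49 contacts in mESC_1FA, 41, 107 and 77 in mESC_2FA, 31 and 11 in mESC_ActD4 and 54 and 69 in mESC_NPM. It took 20, 16 and 20 in mOPC_1FA and was listed at 0 in mOPC_NPM. Snord118 gave 194 of the bin's contacts in mESC_1FA, 206 in mESC_2FA and all 42 in mESC_ActD4, but 29 in mESC_NPM, where 9 RNAs reached the bin. The neighbouring bins chr11:3150001-3175000 and chr11:3175001-3200000, over Sfi1, a centrosomal protein gene, and Drg1, took 48, 59 and 69 and 51, 65 and 55 in mESC_1FA. In mOPC_NPM they took 57 and 81 and 47 and 54, led there by 2610035D17Rik. These 4 bins of chromosomes 17 and 11, chosen after their values were seen, together held 90.3% and 95.6% of far contacts in the mESC_NPM libraries, 11.2% and 16.1% in mOPC_NPM, 6.31% and 6.14% in mESC_ActD4 and 0.689% to 1.48% in the mESC_1FA and mESC_2FA libraries. In the mOPC_1FA libraries the 4 bins held 0.193% to 0.230%. Without these bins 39 and 40 far contacts were left in mESC_NPM, 0.00897% and 0.00657% of its listed interactions. The same bins drew contacts from other chromosomes as well: the chromosome 17 bin held 69.7% and 89.6% of all trans interactions listed in mESC_NPM, against 4.91% to 7.48% in mESC_1FA, and the part of this in the cis result was not tested.

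In mOPCs the first 45 Mb of chromosome 5, a stretch chosen after its values were seen, stood apart. Chromosome 5 held 33.8%, 33.6% and 31.5% of far contacts in mOPC_1FA and 76.0% and 70.5% in mOPC_NPM, against 1.13%, 1.25% and 1.15% in mESC_1FA and 0 in mESC_ActD4 and mESC_NPM. Of the chromosome 5 contacts in mOPC_1FA, 88.9% ± 1.21 had their DNA tag in the first 45 Mb and 87.2% ± 1.36 had both tags there. In mOPC_NPM 98.9% ± 0.0623 had the DNA tag there, and 75.3% ± 1.52 both. In mESC_1FA 4.89% ± 0.109 of the few chromosome 5 contacts had the DNA tag in that stretch. The 3 leading mOPC_1FA bins were in it. The bin chr5:20875001-20900000, over Phtf2, Tmem60 and Rsbn1l, took 256, 254 and 197 contacts, led by RNA of Wdr1, an actin-disassembly factor. The bin chr5:34175001-34200000, over Mxd4 and Zfyve28, took 210, 231 and 241 from 20 RNAs. The bin chr5:9100001-9125000, over Tmem243 and Dmtf1, took 210, 230 and 187 from 28 RNAs, the most of any mOPC_1FA bin. All 3 were at 0 in every mESC library.

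The same stretch was prominent in other measures of these mOPC libraries. RNA tags from the first 45 Mb of chromosome 5 made up 5.78% to 5.85% of all listed interactions in mOPC_1FA and 4.85% and 5.01% in mOPC_NPM, against 1.12% ± 0.0188 in mESC_1FA. Trans interactions had their DNA tag there in 9.77% to 9.95% in mOPC_1FA and in 52.4% and 52.3% in mOPC_NPM, against 0.828% to 0.864% in mESC_1FA. Without Malat1 the values were 27.6% to 29.8% in mOPC_1FA, 55.4% and 56.5% in mOPC_NPM and 0.791% to 0.877% in mESC_1FA. These values move with the chromosome 5 contacts of mOPCs, and their part in the result was not tested. As given above, the mOPC excess over mESCs in the share of far contacts was 0.203 points without chromosome 5, with overlapping libraries.

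**Figure D5:**
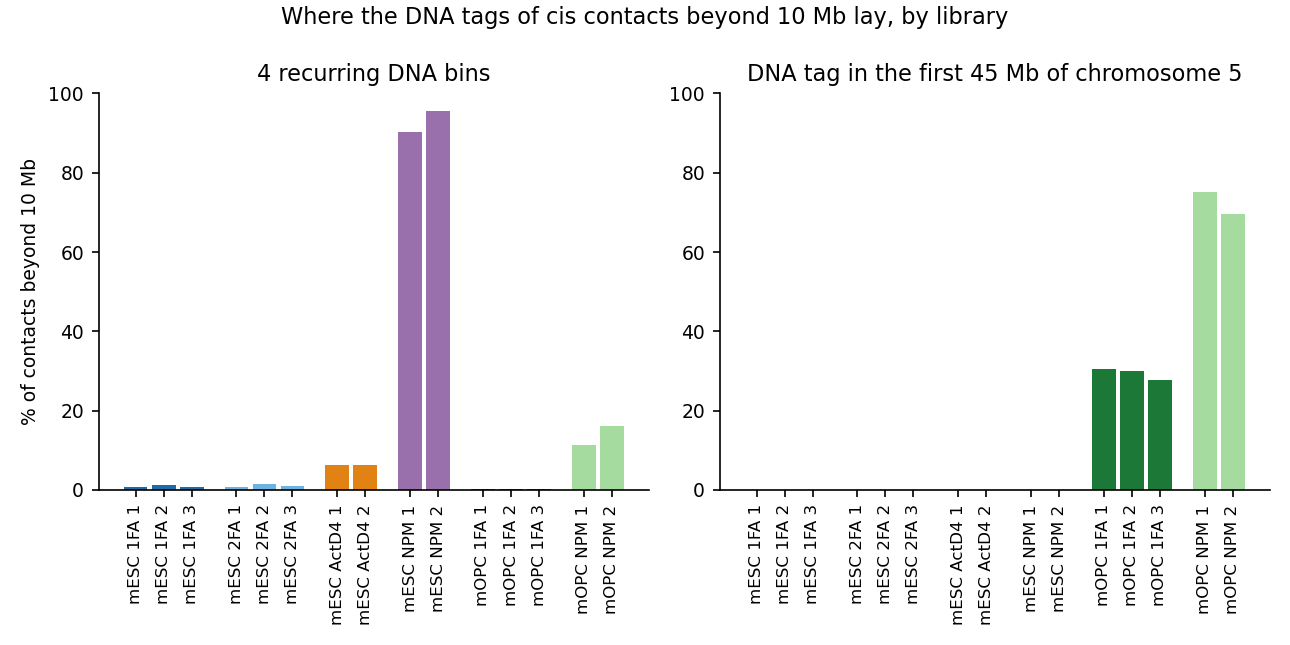
Where the DNA tags of contacts beyond 10 Mb lay, as percent of each library's far contacts: on the left the 4 recurring bins of chromosomes 17 and 11, on the right the first 45 Mb of chromosome 5. The 4 bins hold 90.3% and 95.6% in the mESC_NPM libraries, and the chromosome 5 stretch stands high only in the 5 mOPC libraries.

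The cell types shared few far pairs. Of the pairs of transcript and bin, 333 were listed in both mESC_1FA and mOPC_1FA, which is 2.89% of 11516 in mESC_1FA and 2.62% of 12722 in mOPC_1FA. Pvt1 gave 129 of them, Malat1 75, Gm20388 20, and Auts2 and Ext1 17 each. By transcript the overlap was larger, with 71 shared transcripts, 21.3% of the mESC_1FA carriers and 18.9% of the mOPC_1FA carriers. Under both formaldehyde concentrations 4178 pairs were listed, 36.3% of those in mESC_1FA and 56.5% of those in mESC_2FA. Of the 244 pairs in mOPC_NPM, 122 (50.0%) were also listed in mOPC_1FA, and of the 96 in mESC_NPM 33 (34.4%) in mESC_1FA. After actinomycin D 51 of 227 pairs (22.5%) were ones of mESC_1FA.

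Of 29 chromatin-associated long noncoding RNAs, 24 had listed contacts of any kind in mESC_1FA and 4 of them contacts beyond 10 Mb, where 2.34% of all listed transcripts had such contacts. The 4 were Pvt1, Malat1, Kcnq1ot1 and Meg3, an imprinted RNA with 11, 12 and 9 contacts. In mOPC_1FA 16 were listed and 4 had far contacts, against 3.22% of all listed transcripts, namely Malat1, Pvt1, Kcnq1ot1 (267, 267 and 321) and Neat1, the scaffold of paraspeckles, with 606, 746 and 581. Carriers of far contacts had more listed contacts than other transcripts, as given above, and no list was matched for this. Xist and Norad were at 0 in every group for contacts of any distance. In mESC_NPM Airn, the imprinted antisense RNA of Igf2r on chromosome 17, was the only one, with 1 and 8. All 4 that were tested between mOPC_1FA and mESC_1FA were higher in mOPCs, where 60.8% of all transcripts tested were. In each NPM comparison all 4 tested were lower, as were 93.5% of all transcripts in mESCs and 96.7% in mOPCs, so these counts set the list apart from nothing. All 4 were at 0 in mESC_NPM.

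Of 11 small structural RNAs, 4 had far contacts in mESC_ActD4, namely Snord118, Gm22973, Rnu3a and Rmrp, where 0.212% of all listed transcripts had them, and 3 of these were higher than in mESC_1FA, where 7.14% of all transcripts tested were. Gm22973, the fourth, did not pass. Rn7sk, the 7SK RNA that holds the elongation factor P-TEFb inactive, had far contacts only in mOPCs, with 22, 20 and 38 in mOPC_1FA and 9 and 4 in mOPC_NPM.

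Of 26 long genes, 6 had far contacts in mESC_1FA, namely Wwox, Exoc4, Auts2, Immp2l, Ptprg and Pde4d. In mOPC_1FA 12 had them, against the 2.34% and 3.22% of all listed transcripts, among them Auts2, Magi2, Pde4b, Lsamp and Wwox. Between the cell types 10 were tested, of which 5 were higher and 5 lower in mOPCs, against 60.8% higher and 36.9% lower over all transcripts tested. Magi2, a synaptic scaffold gene, with 320, 305 and 353 contacts, Pde4b, a phosphodiesterase gene, with 284, 279 and 322, and Lsamp, a limbic system adhesion protein gene, with 194, 203 and 270 were listed beyond 10 Mb in mOPC_1FA and not in mESC_1FA. Pde4b had no listed contact of any distance in mESC_1FA. At any distance, Lsamp stood at 3.96 contacts per 1000000 listed there against 1865 in mOPC_1FA, and Magi2 at 23.9 against 1422. The far contacts of these genes thus differed together with their contacts at any distance. Immp2l, with 339, 251 and 300 in mESC_1FA, had 4, 7 and 4 in mOPC_1FA. After actinomycin D and in mESC_NPM all 6 tested were lower, as were 90.7% and 93.5% of all transcripts tested, and all but Wwox and all but Exoc4 were at 0 there. Of the 14 mESC markers 2 had far contacts in mESC_1FA, and of the 15 mOPC markers 5 had them in mOPC_1FA. Esrrb, a nuclear receptor of pluripotent cells, had 419, 345 and 331 far contacts in mESC_1FA and Zfp42 2, 2 and 5. Lhfpl3, Sox6, Cntn1 (938, 995 and 1066), Ptprz1 (157, 119 and 137) and Cspg4 (36, 27 and 52), all genes of oligodendrocyte progenitors, had them in mOPC_1FA, and Pdgfra, Sox10, Olig1 and Olig2 had none. None of the 8 markers of neurons, astrocytes and fibroblasts had any. Their summed level over all distances was 38.5 to 415 contacts per 1000000 listed interactions, with Aqp4, Col3a1 and Dcn at 0 in every group. In mOPC_1FA the neuron marker Syt1 was the only 1 of the 8 listed and held the whole level of 374, which went against the label.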

How the data were processed

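RADICL-seq libraries of 2 mouse cell lines were analysed in 6 groups, 15 libraries in all. The authors extracted RNA and DNA tags, removed ribosomal RNA reads and duplicates, aligned tags to mm10 (GRCm38) with BWA 0.7.15-r1140, kept unique tags and annotated them with GENCODE, and CASAVA 1.8 is named in the submitters' processing notes. The deposited tables hold interactions with tag positions, transcript and 25-kb bin, after a binomial test on pairs of transcript and bin. An interaction whose tags overlap several annotations takes several deposited lines, so lines with the same RNA position, strand, transcript and DNA position were merged into 1, and counts are counts of merged interactions. Distinct molecules with identical positions would also be merged. Counting lines unmerged was an alternative. Columns with the authors' own p-values were not used. Depth before that filter was not used here, since the tables hold only interactions that passed it, and no interval on raw reads is given.

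Positions in the deposited tables are coordinates of tag centres, and distance is the difference of both. Contacts beyond 10 Mb were counted per library, transcript and bin. Shares were compared with two-sided exact permutation tests over libraries, and beyond 10 Mb against 1 to 10 Mb with exact sign flips over libraries. Per-transcript rates were compared with limma 3.58.1 in R 4.3.3 on log2 contacts per 1000000 listed interactions (prior count 0.5, at least 10 contacts in as many libraries as the smaller group has and 15 in all), with Benjamini-Hochberg adjustment. Simulated data were used as a check for mOPC_1FA and mESC_2FA against mESC_1FA only. That check covered neither the actinomycin D and NPM comparisons nor transcripts at 0 in a group. Named transcripts were the leaders of each group by count, and per comparison the 5 largest rises and falls among called transcripts with a mean of at least 20 in a group, with Malat1 and Fgfr2 always given. Members, lists and tests were chosen with earlier results of these data known. Replicate numbers paired the mESC_1FA and mESC_2FA libraries, since same-numbered libraries deviated together (correlations 0.345, 0.475 and 0.321 over 70 transcripts). Alternatives covered the distance limit, thinning, scaling, filters, prior count, Malat1 and Fgfr2, the replicate block and leaving out each library. Some items are not reported here.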

Additional observations from a re-analysis of the deposited data

Results flagged for a closer look

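Signals outside the cis contacts beyond 10 Mb were seen in the interactions between chromosomes. Of these trans interactions, a mean of 9.86% in mOPC_1FA and 52.4% in mOPC_NPM had their DNA tag in the first 45 Mb of chromosome 5, above the 0.828% to 0.864% of the mESC_1FA libraries. Without Malat1 the means were 28.3% and 56.0%. In mESC_NPM a mean of 79.7% of trans interactions had their DNA tag in the bin chr17:39825001-39850000, above the 4.91% to 7.48% of mESC_1FA. Groups of 2 or 3 libraries are too small for a test of single libraries that stand apart.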

How the results depend on the processing

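Of 133 alternative values for the share of contacts beyond 10 Mb, 129 kept their direction, though not their size; no comparison of 2 groups could pass the threshold under any of them. When groups were thinned to the same number and pairs of under 5 left out, which removed none in mESC_ActD4 and kept 4.79% of far contacts in mESC_1FA, mESC_ActD4 minus mESC_1FA turned to 0.308. Thinning with no minimum, chosen after seeing the data like the next, kept all 6 directions, which a random subset is bound to do apart from sampling noise. Thinning with a minimum of 20 left no far contact in mESC_1FA, and mESC_2FA, mESC_ActD4 and mESC_NPM stood 0.0191, 0.216 and 0.0240 above it. Of 73 for the long noncoding share, 71 kept their direction; mOPC_NPM minus mOPC_1FA turned to 2.08 with a limit of 20 Mb and to 1.00 with each pair counted once. Against contacts of 1 to 10 Mb, the long noncoding difference was 0.884 without Malat1 and Fgfr2 and 2.97 to 4.16 leaving out 1 library, and that of DNA tags in genes 2.63 to 4.04. With groups as units, chosen after seeing the data, the differences of -23.4 (protein-coding), -19.1 (intronic) and 2.99 (long noncoding) no longer passed. Transcripts called numbered 610 (mOPC_1FA against mESC_1FA), 285 (mESC_2FA), 243 (mESC_NPM) and 363 (mOPC_NPM against mOPC_1FA) without the filter on low counts, against 286, 88, 137 and 209 with it, since more transcripts were tested. They numbered 89 for mESC_ActD4 with a prior count of 2, against 137, and 84 for mESC_NPM scaled to contacts beyond 10 Mb. That scaling turned the log2 difference of Fgfr2 in mESC_2FA to 0.22 and of Malat1 in mESC_ActD4 to 0.74 and in mOPC_NPM to 0.083. The cause was not tested. With the replicate block, the share differences were 1.00 for mOPC_1FA minus mESC_1FA, -0.477 for mESC_2FA, -1.40 for mESC_ActD4, -1.76 for mESC_NPM and -2.67 for mOPC_NPM, and 286, 93, 133, 134 and 210 transcripts were called. Listed interactions limit every value: a transcript below the authors' filter has no count here.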
